A study of Mus musculus with 18 samples.

Results

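The 10 genes described here are Cd3e, Cd3d, Cd3g, Cd247, Cd5, Gata3, Gzma, Nkg7, Klrb1c and Tcf7, a named set of T cell, natural killer (NK) cell and innate lymphoid genes. They are 10 of 26327 genes counted in RNA from cells sorted from mouse trachea, were chosen by name, and were all found in the table by symbol. The study compared 7 libraries of brush cells, 7 of EpCAM+ epithelial cells and 4 of CD45+ hematopoietic cells. All mice were naive and of 1 B6 congenic strain carrying the transgene Tg(RP23-268L19-EGFP)2Mik, which reports choline acetyltransferase (ChAT) with eGFP, so every group carried the transgene. Brush cells were gated as CD45- EpCAM+ eGFP+. The EpCAM+ gate was CD45- EpCAM+ and, as worded, does not leave out eGFP+ cells. The CD45+ gate took all hematopoietic cells and was not narrowed to lymphocytes. The age and sex of the mice are not stated in the labels, and the labels do not say whether each library is a separate animal; the p-values therefore reflect library-to-library spread, which may be partly technical.

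T cells recognise antigen through a receptor whose signal is carried by the CD3 chains. NK cells and innate lymphoid cells lack that receptor but share transcription factors, cytokine receptors and killing proteins with T cells. In the airway all of these cells lie in and under the epithelium, and brush cells are chemosensory epithelial cells known to make cytokines and lipid mediators that act on innate lymphoid cells. The 10 genes fall into 4 roles: the receptor's signalling chains (Cd3e, Cd3d, Cd3g and Cd247), a surface regulator of that receptor (Cd5), transcription factors (Gata3 and Tcf7), and cytotoxic or NK cell genes (Gzma, Nkg7 and Klrb1c).

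Library totals were 838328 to 6031711 counts in brush cells, 2442601 to 6087184 in EpCAM+ cells and 371652 to 7438791 in CD45+ cells. CD45+ replicate 1 was the shallowest library of the series, so 1 count there is worth more on the CPM scale (counts scaled to the TMM library size). The labels held up against defining genes. Epcam averaged 2126 ± 334 CPM in brush cells, 504 ± 143 in EpCAM+ cells and 28.9 ± 4.25 in CD45+ cells (SD, n = 7, 7 and 4). Ptprc, which encodes CD45, ran from 10.2 to 31.4 CPM in brush libraries, from 0 to 0.270 CPM in EpCAM+ libraries and from 635 to 1491 CPM in CD45+ libraries. The brush channel Trpm5 averaged 2327 ± 520 CPM in brush cells, 1.04 ± 1.10 in EpCAM+ cells and 0.651 ± 0.463 in CD45+ cells. In each group 1 library stood apart from the rest: its median rank correlation with its own group was 0.849 for brush replicate 4, 0.810 for EpCAM+ replicate 5 and 0.759 for CD45+ replicate 1, against 0.895 to 0.951 for the other libraries. In bulk RNA, fewer cells of a type and less RNA per cell cannot be told apart.

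The genes Cd3g, Cd3d and Cd3e lie side by side on mouse chromosome 9 (GENCODE vM21, GRCm38). Cd3g spans chr9:44969572-44980431 on the minus strand, Cd3d spans chr9:44981786-44987339 on the plus strand and Cd3e spans chr9:44998740-45009627 on the minus strand. The 5′ ends of Cd3g and Cd3d are 1355 bases apart and the 3 genes span 40056 bases together. Their promoter windows are shown because these neighbours had nearly all of their reads in CD45+ cells, and that of Cd5 is shown because Cd5 was also read in EpCAM+ cells. The other members are protein-coding genes at chr19:10717116-10739002 (Cd5), chr2:9857078-9890034 (Gata3), chr11:52252371-52283014 (Tcf7), chr13:113093825-113100981 (Gzma) and chr6:128778485-128789215 (Klrb1c), all on the minus strand, and chr7:43437073-43438249 (Nkg7) on the plus strand. All 10 members matched a RefSeq promoter window by symbol. Each window runs from 250 bases before to 50 bases after the RefSeq start (GRCm38.p6), 5′ to 3′ on the gene's strand. Capitals mark matches, on either strand, to 6 short motifs: AGGAAG for ETS factors, CTTTGA for TCF/LEF factors, AGATAA for GATA factors, TGTGGT for RUNX factors, CAGCTG for an E box and TATAAA for a TATA box.
Cd3g (chr9:44980382-44980681, minus strand): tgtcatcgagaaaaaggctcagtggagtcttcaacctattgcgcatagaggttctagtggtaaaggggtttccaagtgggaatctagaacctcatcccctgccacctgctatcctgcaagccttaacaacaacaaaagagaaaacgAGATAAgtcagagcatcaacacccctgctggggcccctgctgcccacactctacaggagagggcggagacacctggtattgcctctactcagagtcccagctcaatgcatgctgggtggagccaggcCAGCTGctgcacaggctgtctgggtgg
Cd3d (chr9:44981536-44981835, plus strand): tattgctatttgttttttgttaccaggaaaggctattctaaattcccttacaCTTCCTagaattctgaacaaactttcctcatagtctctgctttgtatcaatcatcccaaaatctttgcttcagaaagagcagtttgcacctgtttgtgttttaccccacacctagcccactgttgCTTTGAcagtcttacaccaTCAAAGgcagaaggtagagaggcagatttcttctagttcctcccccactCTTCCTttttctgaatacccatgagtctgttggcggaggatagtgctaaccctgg
Cd3e (chr9:45009562-45009861, minus strand): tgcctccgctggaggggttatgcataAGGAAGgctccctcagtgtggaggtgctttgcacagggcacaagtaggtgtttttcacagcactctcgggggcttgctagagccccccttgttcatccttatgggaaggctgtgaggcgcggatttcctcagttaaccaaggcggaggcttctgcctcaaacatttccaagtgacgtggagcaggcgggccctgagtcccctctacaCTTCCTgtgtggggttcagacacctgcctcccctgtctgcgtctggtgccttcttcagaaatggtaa
Cd5 (chr19:10738925-10739224, minus strand): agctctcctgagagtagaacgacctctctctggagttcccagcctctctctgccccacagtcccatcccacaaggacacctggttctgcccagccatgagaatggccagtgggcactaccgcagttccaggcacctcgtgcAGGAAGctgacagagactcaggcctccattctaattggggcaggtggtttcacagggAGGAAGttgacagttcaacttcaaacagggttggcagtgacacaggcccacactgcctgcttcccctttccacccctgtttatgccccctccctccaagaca
The ETS letters occur 2 times each in the Cd3d, Cd3e and Cd5 windows and the share of all 32851 mouse promoter windows of this length that hold them is 35.4%. The Cd3d window also holds the TCF/LEF letters at 73 and 54 bases before the start (16.0% of all windows hold them). In the Cd3g window the GATA letters lie 104 bases before the start (11.2% of all windows) and the E box lies 23 bases after it (16.3% of all windows). None of these 4 windows holds the RUNX or TATA letters, which 16.8% and 13.6% of all windows hold. No motif is common to all 4 windows, no 2 of the matches shown overlap, and a match of 6 letters is a description of the sequence and not a binding site.

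Counted reads of the 10 genes came to 36 in all brush libraries together, 371 in EpCAM+ libraries and 9432 in CD45+ libraries. Of the 36 reads in brush cells, 32 belonged to Tcf7. Brush libraries had no read at all for 6 of the 10 genes (Cd3g, Cd5, Gata3, Gzma, Nkg7 and Klrb1c), whereas EpCAM+ libraries lacked reads for Nkg7 alone. A count of 0 over the group allows up to 0.101 CPM in brush libraries and 0.0986 CPM in EpCAM+ libraries (3 counts of the summed libraries). Such limits and all count intervals given here cover counting error only.

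**Figure D1:**
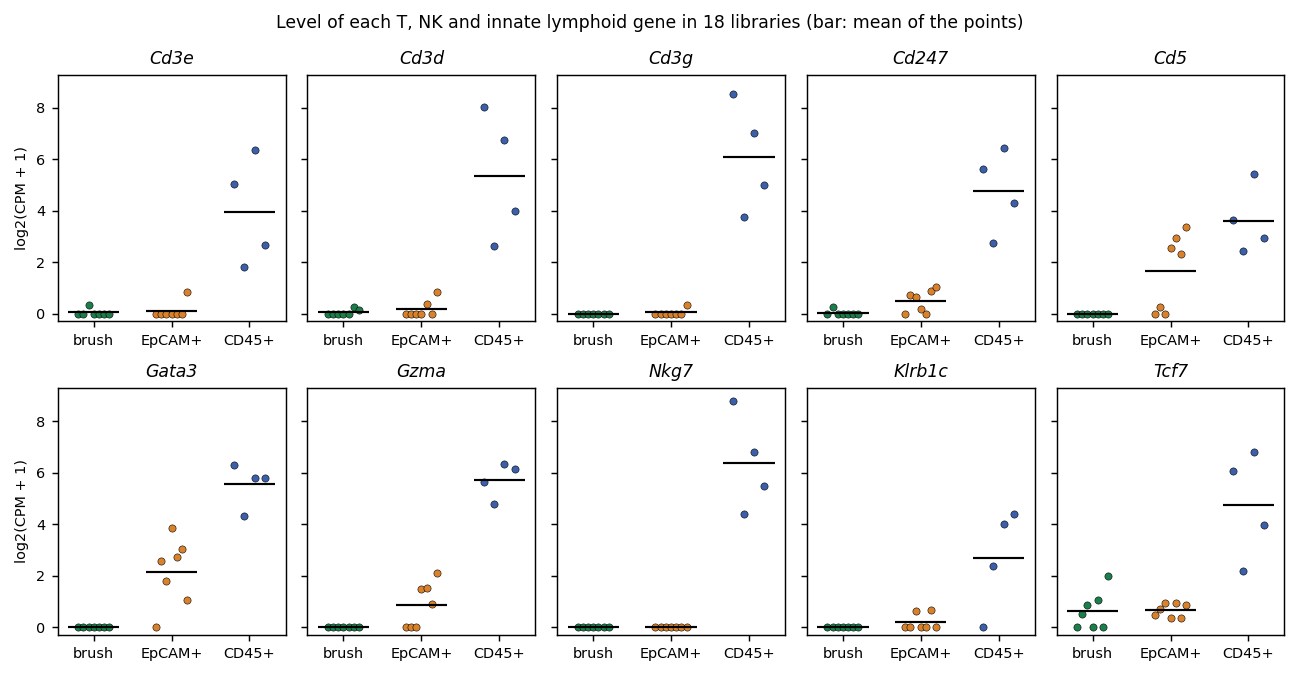
Level of each of the 10 genes as log2(CPM + 1) in every library, 1 panel per gene, with brush cells at the left, EpCAM+ cells in the middle and CD45+ cells at the right of each panel. Bars are means of the 7, 7 and 4 points. Cd5, Gata3 and Gzma are off the zero line in several EpCAM+ libraries and at 0 in all 7 brush libraries, and Klrb1c is at 0 in 1 CD45+ library.

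The CD3 chains form the signalling part of the T cell receptor, and their transcripts were nearly confined to CD45+ cells. Cd3e, the chain most used to mark T cells, had 1 read in brush cells (replicate 3), 3 reads in EpCAM+ cells (all in replicate 7), and 11, 10, 749 and 21 reads in CD45+ replicates 1 to 4. Scaled for depth, those CD45+ values were 31.6, 2.49, 82.0 and 5.33 CPM. Every CD45+ library was above every brush and EpCAM+ library. The pooled level in CD45+ cells was 1343 times that in brush cells (95% exact interval from counts 240.4 to 53129) and 460.3 times that in EpCAM+ cells (157 to 2237). The first ratio rests on 1 brush read and becomes a bound of at least 392 without brush replicate 3, and the second becomes a bound of at least 404 without EpCAM+ replicate 7. Cd3e did not pass the filter on low counts and was not tested.

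Cd3d had 1 read each in brush replicates 6 and 7, 1 read in EpCAM+ replicate 5 and 3 in EpCAM+ replicate 7, and 261, 5.23, 106 and 14.7 CPM in CD45+ replicates 1 to 4. Cd3g had no read in brush cells, 1 read in EpCAM+ cells (replicate 7), and 368, 12.7, 129 and 30.7 CPM in CD45+ replicates 1 to 4. For both genes the CD45+ libraries lay above all others without overlap. Cd3d was lower in brush cells than in CD45+ cells by a pooled ratio of 968 (267 to 8004, adjusted p = 3.25e-08 in edgeR's quasi-likelihood test), and Cd3g was at least 836-fold lower (adjusted p = 8.88e-08). In EpCAM+ cells relative to CD45+ cells, the log2 fold change of Cd3d was -9.12 with an SE of 0.94 (adjusted p = 3.57e-08), and the pooled ratio for Cd3g was 2578 (462 to 101907, adjusted p = 9.01e-08), CD45+ over EpCAM+. The Cd3d ratio was 1630 without brush replicate 6, and the Cd3g ratio becomes a bound of at least 755 without EpCAM+ replicate 7. Between brush and EpCAM+ cells the log2 fold change of Cd3d was -0.79 ± 1.56 (adjusted p = 0.725), and it changed sign to 0.50 without EpCAM+ replicate 7. For Cd3g both groups were at or below 3 reads, so no fold is given.

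Cd247 encodes the zeta chain, which serves the T cell receptor and also activating receptors of NK cells. It had 1 read in brush cells (replicate 2). EpCAM+ replicates 1 to 7 had 0, 3, 3, 1, 0, 3 and 4 reads, and CD45+ replicates 1 to 4 had 48.8, 5.73, 85.0 and 18.8 CPM. The lowest CD45+ library was above the highest EpCAM+ library, at 1.08 CPM. Cd247 was lower in brush cells than in EpCAM+ cells (adjusted p = 0.0303), with a pooled ratio of 13.6, EpCAM+ over brush (2.07 to 576), and 2 EpCAM+ libraries at 0 overlapped the brush libraries. That call rested on few reads: it was lost when any 1 of brush replicates 1, 3, 6 and 7 or EpCAM+ replicates 6 and 7 was left out (adjusted p between 0.0519 and 0.0726), and without brush replicate 2 the ratio becomes a bound of at least 3.78. Relative to CD45+ cells the pooled ratio was 1512 for brush cells, CD45+ over brush (270.6 to 59771, adjusted p = 1.02e-08), and at least 420 without brush replicate 2. For EpCAM+ cells the log2 fold change against CD45+ cells was -6.30 ± 0.68 (adjusted p = 7.56e-08). Cd247 lies at chr1:165788681-165877277 and overlaps Pou2f1 on the opposite strand, which had 759, 380 and 486 reads in brush, EpCAM+ and CD45+ cells. No source used here says whether counting used strand, so the few Cd247 reads of EpCAM+ cells cannot be told apart from reads of Pou2f1. Pou2f1 ran from 19.2 to 35.8 CPM in brush cells, where Cd247 had 1 read, and from 9.16 to 17.2 CPM in EpCAM+ cells.

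Cd5 encodes a surface protein of T cells and some B cells that damps antigen receptor signalling. It had no read in any brush library. EpCAM+ replicates 1 to 7 had 0, 1, 0, 36, 22, 14 and 35 reads, and CD45+ replicates 1 to 4 had 4, 18, 387 and 26 reads, or 11.5, 4.49, 42.4 and 6.60 CPM. The 4 higher EpCAM+ libraries reached 9.44 CPM, inside the range of the CD45+ libraries, while the other 3 EpCAM+ libraries were at or near 0. Cd5 was at least 35.0-fold lower in brush cells than in EpCAM+ cells (adjusted p = 0.00157) and at least 246-fold lower in brush cells than in CD45+ cells (adjusted p = 9.47e-05). Between EpCAM+ and CD45+ cells it was the only tested gene of the set that was not called, with a log2 fold change of -2.21 ± 0.93 (adjusted p = 0.0689), and the groups overlapped. Without EpCAM+ replicate 7 it was called (log2 fold change -2.64, adjusted p = 0.0428), as it was with limma-voom (-3.21, adjusted p = 0.00692), with no filter on low counts (-2.18, adjusted p = 0.0485) and with the replicate number as a block (-4.22, adjusted p = 0.0217).

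Gata3 encodes a zinc finger factor that directs T helper and innate lymphoid cells toward type 2 cytokines and is also made by several epithelia. Brush libraries had no read of it. EpCAM+ replicates 1 to 7 had 0, 23, 13, 101, 18, 25 and 4 reads, at most 13.6 CPM, and CD45+ replicates 1 to 4 had 77.6, 18.7, 54.8 and 54.6 CPM. Gata3 reads were thus present in 6 of the 7 EpCAM+ libraries, and all 7 lay below the lowest CD45+ library. Gata3 was at least 59.7-fold lower in brush cells than in EpCAM+ cells (adjusted p = 5.99e-05), a bound that falls to 35.6 without EpCAM+ replicate 4, and at least 463-fold lower in brush cells than in CD45+ cells (adjusted p = 4.60e-07). In EpCAM+ cells it had a log2 fold change of -3.28 ± 0.65 against CD45+ cells (adjusted p = 0.000514).

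Tcf7 encodes TCF-1, a factor of early T cells, memory T cells and innate lymphoid precursors, and was the member with reads in most brush libraries. Brush replicates 1 to 7 had 0, 2, 3, 0, 2, 0 and 25 reads, EpCAM+ libraries had 1 to 5 reads (median 3), and CD45+ replicates 1 to 4 had 66.1, 3.49, 111 and 14.5 CPM. Brush replicate 7, the deepest brush library, was highest at 2.97 CPM, and EpCAM+ libraries ran from 0.269 to 0.929 CPM. That brush library also held 17 of the 18 brush reads of Lef1, the related TCF/LEF factor. It held all 13 brush reads of Tbx21, the factor of T helper and NK cells that opposes Gata3. Other T cell genes went both ways there, with 3 reads of Trac, 5 of Cd8b1 and 4 of Ccr7. Trbc1, Cd8a, Zap70, Bcl11b and Il7r had no read in it. Its Ptprc level, 10.2 CPM, was the lowest of the brush libraries. All of these genes were picked out after their values were seen, and the part of other cells was not tested. Between brush and EpCAM+ cells Tcf7 had a log2 fold change of 0.58 ± 0.84 (adjusted p = 0.622), and without brush replicate 7 it was -0.74. Tcf7 was lower in brush cells than in CD45+ cells (log2 fold change -5.67 ± 0.81, adjusted p = 3.50e-06) and lower in EpCAM+ cells than in CD45+ cells (-6.25 ± 0.83, adjusted p = 1.38e-06). Without brush replicate 7 the brush value against CD45+ cells was -6.94.

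Gzma encodes granzyme A, a protease that NK cells and killer T cells store in granules. It had no read in brush cells. EpCAM+ replicates 1 to 7 had 0, 0, 0, 13, 6, 3 and 12 reads, at most 3.24 CPM, and CD45+ replicates 1 to 4 had 48.8, 26.4, 80.9 and 68.8 CPM. The 4 EpCAM+ libraries with Gzma reads were the same 4 that held most Cd5 reads, and all EpCAM+ libraries lay far below the CD45+ range. Gzma was at least 11.0-fold lower in brush cells than in EpCAM+ cells (adjusted p = 0.00394, and 0.0817 with limma-voom, which ended the call). Against CD45+ cells it was at least 641-fold lower in brush cells (adjusted p = 2.80e-07), and its log2 fold change in EpCAM+ cells was -5.64 ± 0.72 (adjusted p = 4.72e-06). Granzymes form a family of similar sequences, and no source used here says how shared reads were assigned.

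Nkg7 encodes a granule protein of NK cells and killer T cells. It had no read in any brush or EpCAM+ library and 439.6, 19.9, 109.5 and 44.2 CPM in CD45+ replicates 1 to 4. Nkg7 was at least 797-fold lower in brush cells and at least 819-fold lower in EpCAM+ cells than in CD45+ cells (adjusted p = 8.42e-06 and 7.45e-06). Klrb1c encodes NK1.1, the surface receptor used to identify NK cells in C57BL/6 mice. It had no read in brush cells, 3 reads in EpCAM+ replicate 3 and 2 in EpCAM+ replicate 6, and 0, 4.24, 15.1 and 19.8 CPM in CD45+ replicates 1 to 4. The CD45+ library with no Klrb1c read is the shallowest one, where 3 reads are worth 8.62 CPM, so the groups overlap there. Klrb1c was at least 132-fold lower in brush cells than in CD45+ cells, and the pooled ratio of CD45+ over EpCAM+ cells was 81.3 (34.4 to 253), or 167 without EpCAM+ replicate 3. It did not pass the filter on low counts, and it overlaps an annotated gene on the same strand (Gm44511) and belongs to a family of near copies, so its counts are uncertain.

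Of the 10 genes, 8 passed the filter, which asks for reads above a set level in at least 4 libraries. All 8 were above that level in all 4 CD45+ libraries, and 6 of the 8 reached it in fewer than 4 brush and EpCAM+ libraries, so that a difference from CD45+ cells was largely built into which genes were tested. Against CD45+ cells, 8 of 8 tested members were lower in brush cells and 0 were higher, where 22.4% of all 13418 tested genes were lower and 23.4% higher. The median log2 fold change of the 8 was -10.33 as fitted and -9.30 with the 5 genes at 0 set to their bound, against 0.05 over all tested genes. All 8 were without overlap between the groups, as were 13.8% of all tested genes in that direction. In EpCAM+ cells against CD45+ cells, 7 of 8 were lower and 0 higher, where 18.1% of all tested genes were lower and 22.5% higher, and 7 of the 8 were without overlap (11.4% of all tested genes); the median was -6.28, against 0.08 over all tested genes. Between brush and EpCAM+ cells, where few reads carry the test, 4 of 8 were lower (Gata3, Cd5, Gzma and Cd247) and 0 higher, where 22.0% of all tested genes were lower and 18.3% higher. The median there was -2.04, against -0.06 over all tested genes. It lies between the fitted values of Cd247 (1 brush and 14 EpCAM+ reads) and Cd3g (0 and 1 reads). Nkg7, with no read in either group, counts in it as 0, so the median rests on few reads. None of the 8 was without overlap (10.7% of all tested genes were lower without overlap), since EpCAM+ replicate 1 held only 1 read of the set. The 3 comparisons share libraries and are not independent.

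The order of the genes by level differed between the groups. On the TPM scale, which divides by transcript length, the order in CD45+ cells was Nkg7 (206 ± 195), Cd3g (115 ± 110), Gzma (73.4 ± 51.3), Cd3d (56.4 ± 57.9), Cd247 (24.2 ± 28.3), Cd3e (19.3 ± 29.5), Tcf7 (17.1 ± 21.4), Gata3 (14.0 ± 6.36), Cd5 (7.03 ± 9.86) and Klrb1c (5.85 ± 5.51; SD, n = 4 each). Each pair of neighbours in that order differed by less than the larger SD of the pair. In EpCAM+ cells the highest TPM values belonged to Gata3 (1.50 ± 1.44), Cd5 (1.40 ± 1.51) and Gzma (1.28 ± 1.50; SD, n = 7 each), which also lay within each other's spread, and no other member averaged above 0.394 TPM there. In brush cells Tcf7 led with 0.404 ± 0.708 TPM. As a share of its mean CPM in CD45+ cells, the EpCAM+ mean was 22.3% for Cd5, 9.66% for Gata3, 1.96% for Gzma, 1.65% for Klrb1c, 1.25% for Tcf7 and 1.18% for Cd247, and under 1% for Cd3e (0.381%), Cd3d (0.165%) and Cd3g (0.0285%).

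Cd5, Gata3 and Gzma were thus read in EpCAM+ libraries that held next to no CD3 transcript. Over the 7 EpCAM+ libraries there were 108 reads of Cd5, 184 of Gata3 and 34 of Gzma beside 8 of Cd3e, Cd3d and Cd3g together, 0 of Nkg7 and 1 of Ptprc. Over the 4 CD45+ libraries the same genes had 435, 817 and 1133 reads beside 3408 of the 3 CD3 genes, 1407 of Nkg7 and 14334 of Ptprc. For every 100 CD3 reads there were 1350 Cd5 reads in EpCAM+ cells (95% exact interval from counts 661 to 3207) and 12.8 in CD45+ cells (11.5 to 14.1). In CD45+ replicates 1 to 4 there were 4, 18, 387 and 26 Cd5 reads beside 230, 82, 2896 and 200 CD3 reads. The ratio thus varied among CD45+ libraries by more than that interval, and replicate 3 held most of the reads. The EpCAM+ value rests on 8 CD3 reads, and without EpCAM+ replicate 7 there were 73 Cd5 reads beside 1 CD3 read. Bcl11b, a zinc finger factor of T cells and innate lymphoid cells that some epithelia also make, had 1, 18, 11, 66, 37, 20 and 44 reads in EpCAM+ replicates 1 to 7 and 3 reads in all brush libraries. Most of the counted CD3 and receptor chain reads were in EpCAM+ replicate 7, which held 7 of the 8 CD3 reads, 25 of the 31 reads of the T cell receptor chain genes Trac, Trbc1, Trbc2 and Trdc (picked out after their values were seen), and the single Ptprc read. On the TPM scale, however, Trbc2 ran from 0.66 to 6.50 in EpCAM+ libraries (median 1.08), although 4 of them had no counted read of it. In brush libraries Trbc2 ran from 0 to 2.73 TPM (median 0). How reads shared with its near copy Trbc1 were counted is not given. EpCAM+ replicates 4, 5 and 6 had Cd5, Gata3, Gzma and Bcl11b reads with no counted Ptprc read and 1 CD3 read among them. These libraries also held 4, 1 and 1 reads of the receptor chain genes, in that order. Zap70, a T cell receptor signalling gene, had 6, 0, 1 and 7 reads in EpCAM+ replicates 4 to 7. It was picked out after its values were seen. On the TPM scale Ptprc ran from 0 to 2.98 in EpCAM+ libraries (median 0), and its lowest brush value was 3.47.

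**Figure D2:**
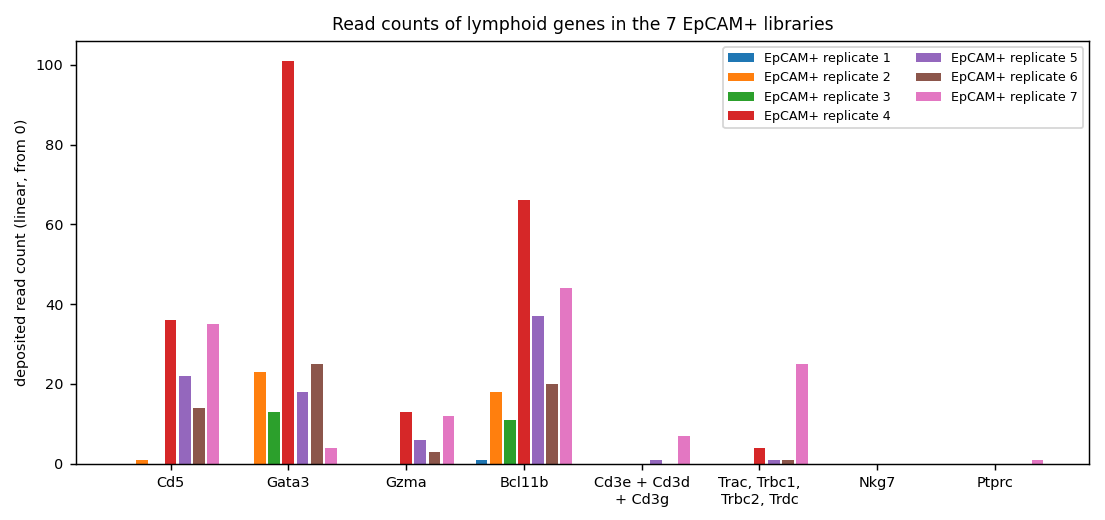
Deposited read counts of 8 genes or gene sums in the 7 EpCAM+ libraries, with 1 bar colour per library and a linear axis from 0. Cd5, Gata3, Gzma and Bcl11b have bars in replicates 4 to 7. Gata3 (23 and 13 reads) and Bcl11b (18 and 11 reads) also have bars in replicates 2 and 3, where Cd5 has 1 and 0 reads and Gzma has 0. The CD3 and T cell receptor chain sums reach 7 and 25 reads in replicate 7, Nkg7 is at 0 throughout and Ptprc has 1 read.

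The sums of other marker lists in EpCAM+ cells give the setting of these reads. The pan-leukocyte list (15 genes) summed to 20.5 to 56.6 CPM per brush library, 4.18 to 13.7 CPM per EpCAM+ library and 9019 to 10876 CPM per CD45+ library. Ikzf1 (1.89 to 5.76 CPM) and Cytip (0 to 6.87 CPM) gave 110 and 99 of the 282 EpCAM+ reads of that list. Cd53, Cd37 and Selplg were at 0 in all EpCAM+ libraries. The B cell list (11 genes) summed to 20.6 to 54.7 CPM in brush cells, 0.186 to 10.4 CPM in EpCAM+ cells and 4083 to 14200 CPM in CD45+ cells. Cd79b, a chain of the B cell receptor, gave 784 of the 990 brush reads of that list (16.5 to 54.7 CPM) and the transcription factor Ebf1 another 185, whereas Ms4a1, Pax5 and Igkc were at 0 in all brush and EpCAM+ libraries. The myeloid list (13 genes) summed to 36.4 to 78.9, 1353 to 3713 and 6556 to 26336 CPM in brush, EpCAM+ and CD45+ libraries. In EpCAM+ cells Lyz2, which airway epithelium also makes, gave 1347 to 3694 CPM. Cd68 was next there, with 228 of the 75485 EpCAM+ reads of that list (3.77 to 18.8 CPM), and C1qa, C1qb and C1qc were at 0. The mast cell and granulocyte list (11 genes) summed to 102 to 195, 9.56 to 25.6 and 378 to 1073 CPM in brush, EpCAM+ and CD45+ libraries. Kit, the stem cell factor receptor, gave 4824 of the 4830 brush reads of that list and 594 of the 603 EpCAM+ reads, whereas Cpa3, Fcer1a and Ms4a2 were at 0 in brush and EpCAM+ cells. A stromal and endothelial list (9 genes) was highest in EpCAM+ cells. It summed to 5.80 to 32.05, 251 to 525 and 31.5 to 134 CPM in brush, EpCAM+ and CD45+ libraries. In EpCAM+ replicate 1 all 625 reads of that list belonged to 1 gene. The part of any other cell type in the Cd5, Gata3 and Gzma reads was not tested beyond these sums.

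**Figure D3:**
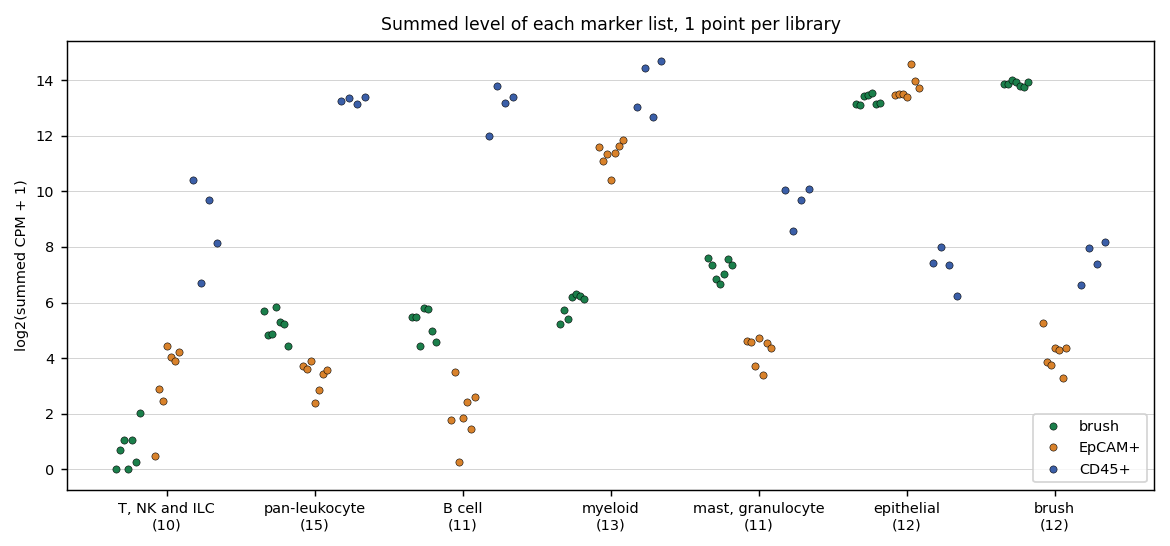
Summed level of 7 marker lists as log2(summed CPM + 1), with 1 point per library and, within each list, brush cells at the left, EpCAM+ cells in the middle and CD45+ cells at the right. The 10 T cell, NK and innate lymphoid genes sum to 0 to 3.09 CPM in brush libraries, 0.401 to 20.6 CPM in EpCAM+ libraries and 103 to 1353 CPM in CD45+ libraries.

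Among the CD45+ libraries the set varied more than the leukocyte genes around it. The 10 genes summed to 1353, 103, 816 and 278 CPM in CD45+ replicates 1 to 4, while the pan-leukocyte list summed to 9749, 10599, 9019 and 10876 CPM. The members' sum was 13.9%, 0.976%, 9.05% and 2.56% of the pan-leukocyte sum in those 4 libraries. The myeloid sum was 8332, 21958, 6556 and 26336 CPM, so that replicates 1 and 3, with the higher summed CPM of the 10 genes, had the lower myeloid sums; with 4 libraries no correlation is given. That split did not hold for every member: Gzma was lower in replicate 1 than in replicate 4, and Klrb1c was highest in replicate 4. The B cell sum was 4083, 14200, 9230 and 10794 CPM. The genes did not all spread alike: Cd3d ran from 5.23 to 261 CPM and Cd3g from 12.7 to 368 CPM, whereas Gata3 ran from 18.7 to 77.6 CPM and Gzma from 26.4 to 80.9 CPM. Within the CD3 complex the order of the libraries also differed by gene, since Cd3g and Cd3d were highest in replicate 1 and Cd3e and Cd247 in replicate 3. The ratio of Cd3e to Cd3g reads was 0.0859, 0.196, 0.636 and 0.174 in replicates 1 to 4.

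**Figure D4:**
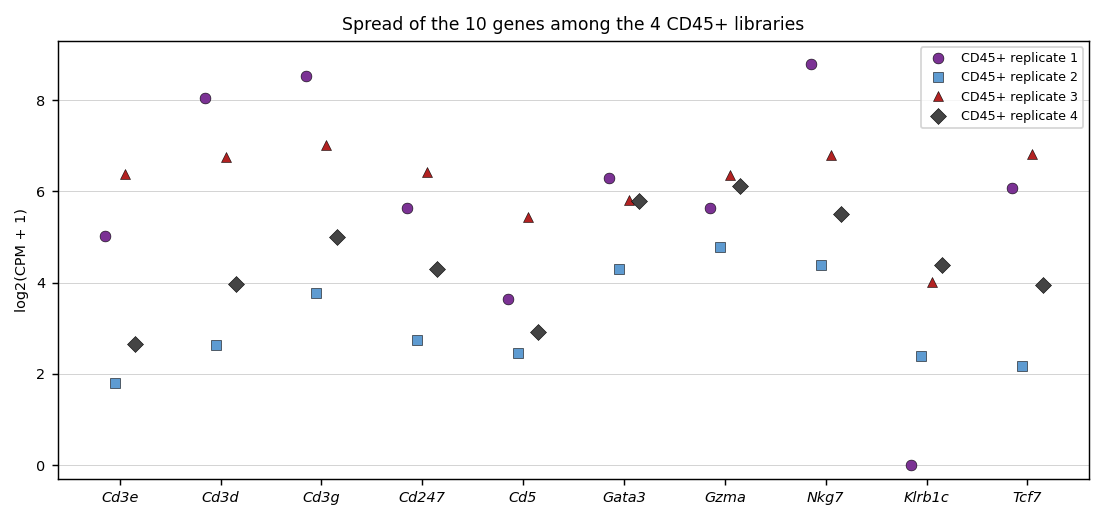
Level of each of the 10 genes as log2(CPM + 1) in the 4 CD45+ libraries, with 1 symbol per library. Replicate 2 is the lowest for every gene except Klrb1c, which replicate 1 lists at 0, and replicates 1 and 3 lie highest for the CD3 genes, Cd247, Cd5, Nkg7 and Tcf7.

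Single CD45+ libraries set the size of the fold changes, though not the calls against CD45+ cells. Replicate 3, the deepest, held 749 of the 791 Cd3e reads (94.7%), 91.5% of Tcf7 reads, 89.0% of Cd5 reads and 59.2% of Klrb1c reads in CD45+ cells. Without it, the bounds on how much lower brush cells were than CD45+ cells became 357-fold for Cd3g, 484-fold for Nkg7 and 57.1-fold for Cd5, and the pooled ratios, CD45+ over brush, became 149.8 for Cd3e, 303 for Cd3d, 407 for Cd247 and 10.5 for Tcf7. Against EpCAM+ cells the ratios without it, CD45+ over EpCAM+, were 51.3 for Cd3e, 156 for Cd3d, 1100 for Cd3g, 29.9 for Cd247, 19.1 for Tcf7 and 1.63 for Cd5, with a bound of 498 for Nkg7. The fitted log2 fold changes without it were -8.42 for Cd247, -7.76 for Cd5 and -4.78 for Tcf7 in brush cells, and -5.48 for Cd247 and -5.29 for Tcf7 in EpCAM+ cells. Without CD45+ replicate 1, the shallow library that stands apart, they were -8.82 for Cd3d, -11.03 for Cd3g and -11.04 for Nkg7 in brush cells, and -8.00, -9.89 and -11.04 for these genes in EpCAM+ cells. Without brush replicate 2 the value of Cd247 was -4.10 against EpCAM+ cells and -10.36 against CD45+ cells, and without EpCAM+ replicate 7 the values against CD45+ cells were -10.42 for Cd3d and -12.13 for Cd3g. When brush replicate 4, EpCAM+ replicate 5 and CD45+ replicate 1 were all left out, 4, 9 and 8 members were lower for brush relative to EpCAM+, brush relative to CD45+ and EpCAM+ relative to CD45+ cells, in that order.

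A wider list of 78 other genes of T cell receptor signalling and of T, NK and innate lymphoid identity gave the surroundings of the set, and 56 of them were tested. The filter favours genes of CD45+ cells here too, since 45 of the 56 reached its level in fewer than 4 brush and EpCAM+ libraries, so that lower levels outside CD45+ cells were largely built into which genes were tested. Among its most abundant genes in CD45+ cells were Ccr7, the lymph node homing receptor (388 ± 511 TPM), Ccl5, a chemokine of killer cells (363 ± 314 TPM), Trbc2, a T cell receptor constant chain (254 ± 262 TPM), Il2rg, the common cytokine receptor chain (225 ± 148 TPM), and Gimap6, a lymphocyte GTPase (165 ± 168 TPM; SD, n = 4 each). Trbc2 has a near-identical copy, Trbc1, so its level is uncertain.

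Between brush and EpCAM+ cells 3 of the 56 were higher in brush cells and 6 were lower, where 18.3% of all tested genes were higher and 22.0% lower, with a median log2 fold change of 0.00 (-0.06 over all tested genes). As shares of the list both counts were below those of all tested genes. However, 36 of the 56 reached the filter level in no brush or EpCAM+ library. Such genes had too few reads for a likely call between these 2 groups. Some, such as Gimap4, had no read in either group and entered the median at 0. The low shares and the median are therefore no measure of likeness between brush and EpCAM+ cells. The 3 higher ones were Gimap5, S1pr1 and Lcp2. Gimap5, a GTPase of lymphocyte survival, had a mean of 20.6 ± 5.26 CPM in brush libraries and no read in EpCAM+ libraries, at least 219.6-fold higher (adjusted p = 1.01e-08), whereas its relative Gimap4 had no read in either group. Gimap5 averaged 40.0 ± 27.3 CPM in CD45+ cells, and its log2 fold change in brush cells against them was -0.88 ± 0.41 (adjusted p = 0.0944). S1pr1, a receptor for lymphocyte exit, and Lcp2, an adaptor of T cell receptor signalling, rested on 21 and 6 reads in brush cells and 2 and 0 in EpCAM+ cells (adjusted p = 0.0386 and 0.0119).

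The 6 that were lower in brush cells than in EpCAM+ cells included factors of lymphoid development. Bcl11b had means of 0.327 ± 0.703 CPM in brush libraries and 6.31 ± 4.53 CPM in EpCAM+ libraries (-5.53 ± 1.00 as log2, adjusted p = 9.66e-05). Areg, the growth factor amphiregulin, averaged 0.234 ± 0.180 and 11.5 ± 4.55 CPM in brush and EpCAM+ cells (-5.14 ± 0.50, adjusted p = 2.31e-08). Zbtb16, which encodes PLZF, a factor of innate-like lymphocytes, averaged 1.25 ± 1.67 and 22.6 ± 6.72 CPM in brush and EpCAM+ cells (-4.30 ± 0.72, adjusted p = 3.96e-05). Il18r1, a chain of the interleukin-18 receptor, averaged 11.8 ± 3.81 and 46.1 ± 12.8 CPM (-1.97 ± 0.32, adjusted p = 2.32e-05), and Ets1 10.1 ± 3.11 and 38.3 ± 22.5 CPM (-1.88 ± 0.44, adjusted p = 0.00142), in the same order. Il2rg, at 3 reads in brush cells and 23 in EpCAM+ cells, had an adjusted p of 0.0483. Areg, Zbtb16 and Il18r1 were without overlap between the 2 groups.

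Against CD45+ cells, 51 of the 56 were lower in brush cells and 1 was higher, where 22.4% of all tested genes were lower and 23.4% higher, with a median log2 fold change of -8.67 as fitted and -8.48 with the 16 genes at 0 set to their bound. Among the lower genes with the largest fold changes, Il7r, the interleukin-7 receptor, Gimap4, Ms4a4b and Cd226 had no read in brush cells and were at least 1261-fold, 1629-fold, 696-fold and 594-fold lower, and Ccr7 and Il2rg had log2 fold changes of -12.12 ± 0.90 and -11.06 ± 0.89.

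In EpCAM+ cells against CD45+ cells, 49 of the 56 were lower and 1 was higher, where 18.1% of all tested genes were lower and 22.5% higher, with a median of -8.27 as fitted and -8.04 with the 13 genes at 0 set to their bound. Il18r1 was the higher gene, at 46.1 ± 12.8 CPM in EpCAM+ libraries and 21.6 ± 12.5 CPM in CD45+ cells (log2 fold change 1.11 ± 0.38, adjusted p = 0.0210), and no gene of the list was called higher without CD45+ replicate 2 or without CD45+ replicate 4. The genes not called, 6 in all, included Bcl11b (-1.76 ± 0.74, adjusted p = 0.0624), Areg (-0.97 ± 0.42, adjusted p = 0.0699), Id2, an inhibitor of E proteins needed by innate lymphoid cells (-0.75 ± 0.40, adjusted p = 0.148), Rora, a nuclear receptor of type 2 innate lymphoid cells (-0.19 ± 0.37, adjusted p = 0.735), and Zbtb16 (0.00 ± 0.72, adjusted p = 1.00). Lck, the kinase that starts T cell receptor signalling, picked out after its values were seen, had reads outside CD45+ cells, at 2.16 ± 1.58, 2.15 ± 1.30 and 171 ± 159 CPM in brush, EpCAM+ and CD45+ cells. The largest falls in EpCAM+ cells belonged to Ccr7, Gimap4, Lcp2, Runx3, Il7r and Ms4a4b, of which Gimap4, Lcp2, Runx3 and Ms4a4b had no read there.

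The genes whose profile over the 18 libraries was most like that of Cd3e, by the root mean square difference of centred log2(CPM + 1) among 13418 genes, were Cd96 (0.341), Cd6 (0.353), Cd8a (0.401), Cd247 (0.477) and Fam78a (0.487). Cd96, Cd6 and Cd8a are surface proteins of T cells, and Cd96 is also found on NK cells. They averaged 26.5 ± 26.1, 27.5 ± 32.7 and 43.5 ± 48.6 CPM in CD45+ cells and at most 0.484 CPM in the other 2 groups. For Gata3 the nearest profiles were Rcn3 (0.819), Inpp4b (0.822), Cd302 (0.874), Gimap9 (0.908) and Sh3bp2 (0.913), each at a greater distance than any of the 5 nearest to Cd3e. None of the 5 nearest to Gata3 is a member, and all 5 averaged more in EpCAM+ cells than in brush cells, as Gata3 did. Levels shared with Cd3e or Gata3 follow from picking genes by likeness over these libraries, so they are not a separate result. Inpp4b, a lipid phosphatase, averaged 0, 2.58 ± 0.793 and 60.5 ± 28.0 CPM in brush, EpCAM+ and CD45+ cells.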

How the data were processed

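RNA from 18 sorted cell samples of mouse trachea was sequenced by the authors. The submitters' processing notes name mm10 as the build and list STAR 2.4.2a, RSEM 1.2.21, Picard, DESeq2 and featureCounts without saying what each did; no source used here gives the gene annotation or the strand setting. The authors deposited 1 table of whole-number read counts per gene, which is the main measurement. They also deposited, per the file headers, an RSEM table per sample with expected counts (estimated counts, rounded here for an alternative) and TPM, which was used to compare levels between genes because it divides by transcript length. A deposited normalized table was not used here. How the counting treated reads shared between copies is not given, and it could lower or move counts of Gzma and Klrb1c.

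Groups were taken from the labels. Counts were tested with edgeR 4.0.16 in R 4.3.3 (quasi-likelihood F test, TMM scaling, filterByExpr by group), with all 18 libraries in 1 fit and group as the only term, and p-values were adjusted by Benjamini-Hochberg over 13418 tested genes. A gene was called at an adjusted p below 0.05. Log2 fold changes are the first named group over the second, and their SE is the absolute value divided by the square root of F. CPM are counts scaled to the TMM library size. A group at 0 was given a bound from 3 counts over its summed libraries. Where both groups had reads, a pooled ratio over all libraries has an exact 95% interval from counts. No ratio or bound is given where both groups were at or below 3 counts. The fit was tested on simulated data.

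The 10 genes, the gene lists and the tests were chosen with earlier results of these data known, so list counts are descriptions. The text names all members, up to 6 called genes of the wider list in each direction and comparison by size of fold change, the 6 most abundant other genes of that list in CD45+ cells, and the 5 nearest profiles to Cd3e and to Gata3; others are said to be later choices. A few genes that this rule selects are not reported here. Alternatives were RLE scaling, DESeq2 1.42.0, limma-voom (limma 3.58.1), no filter, a minimum mean of 10 CPM, fits of only the 2 groups compared, a replicate block, RSEM counts, no ribosomal RNA genes and libraries left out. Within a group, any pair of libraries differed by a chi-square of at least 6.11 per degree of freedom, so none was taken for a copy of another. Ribosomal RNA genes took 24.0 to 63.5% of counts in brush, 12.2 to 34.1% in EpCAM+ and 20.7 to 43.4% in CD45+ libraries.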

Additional observations from a re-analysis of the deposited data

Results flagged for a closer look

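In 6 gene and group pairs 1 library lay far from the others of its group by Dixon's criterion. In 4 of the 6 (Cd3e and Cd247 in brush cells, Cd3e and Cd3g in EpCAM+ cells) a single library held all reads, and such a pair always meets the criterion, so it says nothing there. The other 2, Tcf7 in brush cells and Cd3d in EpCAM+ cells, were among 19 pairs with reads in 2 or more libraries; chance flags about 1 in 20 groups of continuous values, a rate that need not hold at so few reads. In brush cells, Cd3e was highest in replicate 3 (0.271 CPM), Cd247 in replicate 2 (0.203 CPM) and Tcf7 in replicate 7 (2.97 CPM). The Cd3e and Cd247 values are 1 read each, and the Tcf7 value is 25 reads. In EpCAM+ cells, replicate 7 was highest for Cd3e (0.809 CPM), Cd3d (0.809 CPM) and Cd3g (0.270 CPM), which are 3, 3 and 1 reads. EpCAM+ replicate 7 also held the only Ptprc read of its group, and brush replicate 7 the most Lef1 and Tbx21 reads of its group. The same brush library had the lowest Ptprc level of its group, at 10.2 CPM. The part of other cells in these reads was not tested.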

How the results depend on the processing

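The count of members lower in brush than in EpCAM+ cells was 4 and became 2 with limma-voom, which ended the calls of Cd247 (adjusted p = 0.294) and Gzma (0.0817); leaving out single libraries gave 3 to 4. Against CD45+ cells, 8 to 9 members were lower in brush cells and 7 to 8 in EpCAM+ cells when 1 library was left out, and 10 in each with no filter on low counts. For the wider list, genes higher in EpCAM+ than in CD45+ cells numbered 1, against 2 with DESeq2, with the replicate block and without brush replicate 4, EpCAM+ replicate 5 and CD45+ replicate 1 together, and 0 to 2 without single libraries. Those higher in brush than in EpCAM+ cells numbered 3, and 1 when only these 2 groups were fitted, where the filter left 8 genes of the wider list and no member, so that setting gives no value for the members. Values between brush and EpCAM+ cells that changed sign, none of them called, were Cd3d (0.16 with limma-voom, 0.50 without EpCAM+ replicate 7) and Tcf7 (-0.27 with limma-voom, -0.076 with the replicate block, -0.74 without brush replicate 7), with ranges over single libraries left out of -1.27 to 0.50 for Cd3d and -0.74 to 0.83 for Tcf7; the cause was not tested. Of 15 same-numbered pairs of libraries, 6 correlated above 0.1 (range -0.198 to 0.263). Pairs with different numbers were not correlated, so this check cannot tell whether the replicate numbers pair the libraries. The replicate block left 4 members lower in brush than in EpCAM+ cells and 8 in both comparisons with CD45+ cells. Depth limits the values at 0 to 3 reads, and the shallow CD45+ replicate 1 limits Klrb1c.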
